A study of Arabidopsis thaliana with 12 samples.

Results

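Aquaporins are membrane channels for water and small neutral solutes, and 10 Arabidopsis aquaporin genes were followed here across 4 shoot tissues. The 10 genes are 6 tonoplast intrinsic proteins (TIPs) and 4 plasma membrane intrinsic proteins (PIPs), out of 33559 gene identifiers in the table. They were chosen by their names and on a measured value, the strong preference of TIP2;2 for leaves, so the leaf values below are a description and carry no test. The TIP genes are TIP1;1 (AT2G36830, GAMMA-TIP), TIP1;2 (AT3G26520), TIP1;3 (AT4G01470), TIP2;1 (AT3G16240, DELTA-TIP), TIP2;2 (AT4G17340) and TIP2;3 (AT5G47450). GAMMA-TIP and DELTA-TIP are RefSeq's symbols and are used here, as are the letter names that RefSeq lists for PIP genes. The PIP genes are PIP1A (AT3G61430, PIP1;1), PIP1B (AT2G45960, PIP1;2), PIP2A (AT3G53420, PIP2;1) and PIP2B (AT2G37170, PIP2;2). The other 25 of the 35 aquaporin genes of the species, of which 4 are TIPs and 9 are PIPs, serve as the comparison.

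The study followed the start of flower formation with RNA sequencing in the Landsberg erecta background, in 4 groups of 3 libraries each, all from plants grown with 16 h of light and 8 h of darkness. Rosette leaves came from wild-type plants that were flowering. Apices of day 0 were dissected from ap1-1 cal-1 double mutants carrying 35S::AP1-GR, which pile up meristems in a cauliflower-like mass. Apices of day 2 came from the same genotype 2 days after a solution of 10 µM dexamethasone was applied, with a repeat shortly afterwards. Wild-type inflorescences had their flowers beyond stage 12 removed. In 35S::AP1-GR a viral promoter active in most tissues drives the flower identity factor APETALA1 fused to a steroid receptor domain, and the steroid dexamethasone lets the fusion enter the nucleus. No mock-treated apices are among these groups, so steroid and elapsed time cannot be told apart between day 0 and day 2, and genotype, tissue and treatment differ together between leaves, apices and inflorescences.

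TIPs sit in the membrane of the vacuole, where they let water and, for several of them, urea, ammonia or hydrogen peroxide pass between vacuole and cytosol. PIPs sit in the plasma membrane and fall into the PIP1 and PIP2 groups, and PIP1 proteins often need a PIP2 partner to reach the cell surface. Each channel carries a pair of short loops with the amino acids asparagine, proline and alanine (NPA) that meet in the pore. In leaves, PIPs are known for the movement of water out of the veins and across guard cells and mesophyll, and TIPs for the fast exchange of water between the large vacuole and the cytosol.

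The table holds 1 merged value per gene and group, in FPKM, the fragments of a transcript scaled to its length and to the number of mapped fragments. No spread between libraries can be computed from it, and no p-value is given. Sequencing depth is unknown from these values. Differences are given as log2(FPKM + 1), and a gene is called higher or lower where that difference is at least 1 and the higher group has at least 5 FPKM, a rule of size and not a test. The rule was applied to the 22289 genes with at least 1 FPKM in some group, among which were all 10 chosen genes and 30 of the 35 aquaporins. The 6 comparisons share groups, so their values are set side by side and are not independent. In bulk tissue, fewer cells of a type and less RNA per cell cannot be told apart.

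The FPKM values sum to 1283890 in leaves and to between 873400 and 925754 in the other groups. Rescaling every group to an equal sum moves the median difference of leaves against the other groups by -0.27, -0.31 and -0.42 on the log2 scale for day 0, day 2 and inflorescences. Of the genes called between leaves and day 0, 58.5% were higher in leaves as deposited and 40.7% after that rescaling. Against day 2 these shares were 59.3% and 40.0%, and against inflorescences 52.5% and 34.2%. With the upper quartile as the scale the 3 shares were 46.1%, 46.4% and 39.6%, and with median ratios they were 54.6%, 54.3% and 50.9%. Most marker genes followed the labels. The 5 meristem markers summed to 332 and 397 FPKM in apices of day 0 and day 2. Their sum was 92.8 in inflorescences and 0.481 in leaves. Among them, WUS was highest in inflorescences, at 17.8 against 6.91 at day 0 and 13.4 at day 2. The 4 floral organ markers summed to 26.3 at day 0 and 391 at day 2, and 4 of the 5 mesophyll markers were highest in leaves. The exception was RBCS1A, which is listed at 0 in leaves and at 2029 or more elsewhere, and its cause was not tested.

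TIP2;2 and TIP2;3 are the closest pair among the TIP2 genes, and stretches of their coding sequences are shown because every reading of their levels rests on telling such close genes apart. Each printed run holds 57 bases around the first NPA loop, with 24 bases on either side of its codons, read from RefSeq's TAIR10.1 assembly of the Columbia accession. All 35 aquaporins were matched there by locus identifier. In the first 3 runs, coding bases 223 to 279, capitals mark bases that differ from TIP2;2.
TIP2;2: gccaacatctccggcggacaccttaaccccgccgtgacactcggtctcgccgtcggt
TIP2;3: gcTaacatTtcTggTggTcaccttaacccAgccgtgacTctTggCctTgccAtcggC
DELTA-TIP: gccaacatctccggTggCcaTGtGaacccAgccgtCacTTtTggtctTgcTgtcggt
Both relatives differ from the first at 12 of the 57 bases. Over the whole coding sequence, identity to the first was 81.5% for the second and 70.7% for the third. For these 3 genes, no 50-base window of the longest transcript, the length of the reads, occurs exactly in another coding gene's mRNA. Windows that match with a few mismatches, and other kinds of transcript, were not searched. All 10 chosen genes have the codons of 2 NPA loops.

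The plasma membrane genes gave a different picture, shown by PIP2B with its neighbour RD28 (AT2G37180, PIP2;3) and with PIP2A. Capitals mark bases that differ from PIP2B, in coding bases 289 to 345 of PIP2B and RD28 and 295 to 351 of PIP2A.
PIP2B: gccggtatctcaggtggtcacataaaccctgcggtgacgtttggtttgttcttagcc
RD28: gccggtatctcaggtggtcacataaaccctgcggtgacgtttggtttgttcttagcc
PIP2A: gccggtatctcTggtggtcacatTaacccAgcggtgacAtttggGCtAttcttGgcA
PIP2B and RD28 do not differ in this stretch, and their coding sequences of 858 bases each are 94.8% identical. The 2 genes lie 2612 bases apart with no coding gene between them. Of the 50-base windows of the PIP2B transcript, 254 of 1296, or 19.6%, also occur in RD28, so how reads were divided between these neighbours can move both values. No such shared window was found for the other 9 chosen genes.

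TIP2;2 mRNA was found mainly in leaves. Its level was 895 FPKM in leaves, 2.35 in apices of day 0, 2.09 in apices of day 2 and 7.35 in inflorescences. The leaf level was 122 times the highest of the other groups, 382 times that of day 0 and 428 times that of day 2. Among 15257 genes with at least 5 FPKM in leaves and a level above 0 elsewhere, this preference ranked 83rd, and a further 22 genes were listed at 0 in every other group. Among the 2422 genes with at least 100 FPKM in leaves it ranked 24th. The median of the 15257 genes was 1.09 times. With other scalings of the groups this preference stayed between 87.9 and 122 times.

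TIP2;3, known mainly from roots and able to carry ammonia when made in yeast, was also highest in leaves and next in inflorescences, at lower levels. It stood at 30.3 FPKM in leaves, 0.145 in day-0 apices, 0.167 in day-2 apices and 0.502 in inflorescences. Its leaf level was 60.3 times the highest other group, which ranked 164th among the leaf genes. A ratio against a level under 1 FPKM is loose. DELTA-TIP, the third TIP2 gene and known from the vacuoles of shoots, was abundant in all groups, at 473 FPKM in leaves, 315 in day-0 apices, 243 in day-2 apices and 554 in inflorescences. Its highest level was thus in inflorescences, 1.17 times that of leaves. The TIP2 group therefore held 2 genes with a strong leaf preference and 1 with none.

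**Figure D1:**
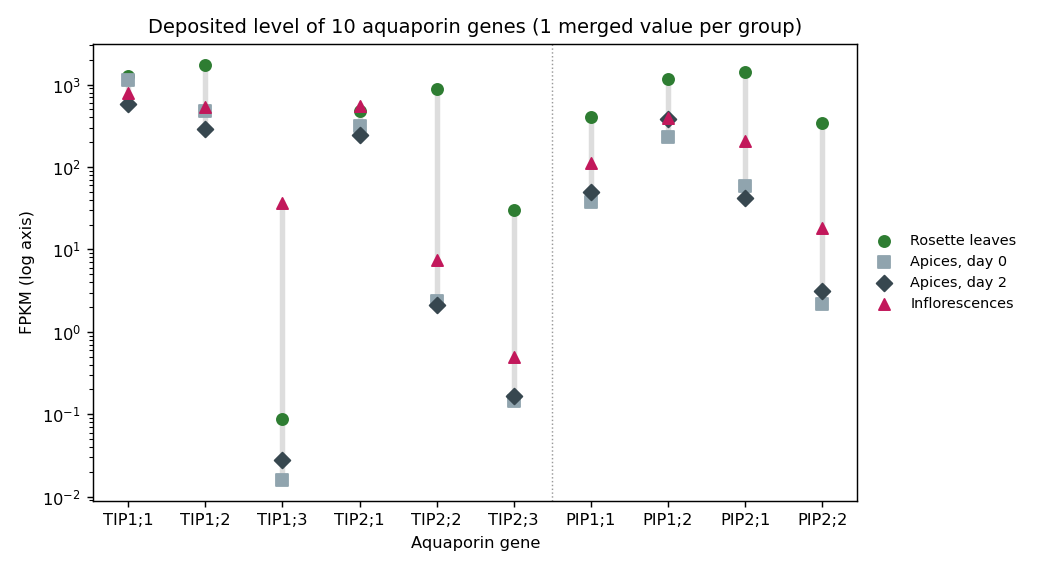
FPKM levels (log axis) of the 10 aquaporin genes in rosette leaves, apices of day 0 and day 2, and inflorescences, with 1 point per gene and group and no error, since each value is merged over 3 libraries. TIP2;2 stands at 895 in leaves and at 2.35 or less in apices, while GAMMA-TIP stays between 587 and 1286 and TIP1;3 passes 1 FPKM in inflorescences alone. Genes are labelled by their systematic names.

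The promoter windows of these 2 leaf-preferring genes share a long stretch, which is printed for that reason. Each run covers the window from 250 bases before to 50 bases after the annotated gene start, on the gene's strand in TAIR10.1, at chr4:9698690-9698989 on the plus strand for TIP2;2 and chr5:19249573-19249872 on the minus strand for TIP2;3. Capitals mark the 112 bases that are identical in the alignment.
TIP2;2: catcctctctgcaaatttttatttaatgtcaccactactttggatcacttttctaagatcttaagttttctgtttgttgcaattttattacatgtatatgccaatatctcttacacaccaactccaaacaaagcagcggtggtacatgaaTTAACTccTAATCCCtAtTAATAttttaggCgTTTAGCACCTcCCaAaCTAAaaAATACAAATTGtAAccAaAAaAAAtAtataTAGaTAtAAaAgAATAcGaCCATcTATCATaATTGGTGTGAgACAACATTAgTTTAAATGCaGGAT
TIP2;3: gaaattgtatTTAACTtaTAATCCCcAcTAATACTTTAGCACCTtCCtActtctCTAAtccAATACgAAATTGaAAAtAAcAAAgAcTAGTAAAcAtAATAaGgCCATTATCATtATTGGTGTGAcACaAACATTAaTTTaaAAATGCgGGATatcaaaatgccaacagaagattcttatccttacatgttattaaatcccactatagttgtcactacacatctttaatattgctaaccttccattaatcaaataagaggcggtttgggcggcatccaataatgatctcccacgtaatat
The alignment spans 159 columns, of which 70.4% are identical, and begins 100 bases before the start in the first gene and 240 bases before it in the second. In TIP2;2 it runs past the annotated start to the end of the window. In TIP2;3 it ends 98 bases before the start. When the TIP2;2 window was aligned in the same way with the windows of all 27442 other genes, TIP2;3 had the highest score, 72. The next highest score was 45 and the median 21. Of the other aquaporins, PIP2B reached 36, in 71st place, NIP5;1 reached 35, in 95th place, and DELTA-TIP reached 33, in 196th place. The alignment was made after the levels were known, and the shared letters say nothing about what binds them.

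**Figure D2:**
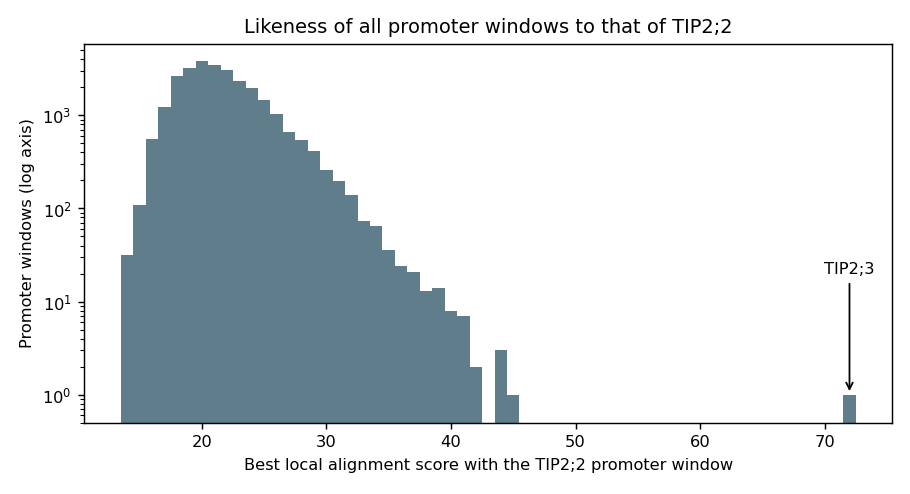
Local alignment scores of the TIP2;2 promoter window with the windows of 27442 other genes, as the number of genes (log axis) at each score. The median is 21, TIP2;3 stands alone at 72, and the highest score apart from it is 45.

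Short motifs, 6 in all, were searched on both strands of all 27443 promoter windows. The G-box CACGTG and the W-box TTGACC were in none of the 10 windows, against 7.68% and 14.2% of all windows. The I-box GATAAG, named from light-regulated genes, was in 3 windows, those of TIP2;3, PIP1A and PIP1B, against 14.6% of all. The site II letters TGGGCC were in the TIP1;3 window alone (15.5% of all) and the telo-box AACCCTA in that of PIP2A alone (8.83% of all). The short pollen element AGAAA was in 9 of 10 windows and in 88.5% of all.

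GAMMA-TIP and TIP1;2, both abundant vacuole channels of most vegetative tissues and 80.8% identical in coding sequence, differed in how their levels were spread. GAMMA-TIP stood at 1286 FPKM in leaves, 1145 in day-0 apices, 587 in day-2 apices and 791 in inflorescences. TIP1;2 stood at 1745 in leaves, 482 in day-0 apices, 287 in day-2 apices and 543 in inflorescences. GAMMA-TIP was the most abundant TIP in apices and inflorescences and TIP1;2 in leaves, where it ranked 69th of all genes kept. TIP1;2 passed the rule of size against each other group, with log2 differences of 1.85, 2.60 and 1.68 for day 0, day 2 and inflorescences. GAMMA-TIP passed it against day 2 alone, by 1.13, and that call was lost at 0.57, 0.76 and 0.98 when the groups were rescaled to equal sums, to upper quartiles or by median ratios. Its difference of 0.17 between leaves and day 0 turned to -0.34 and -0.18 under the first and second of these.

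TIP1;3, a TIP known from pollen, was found in inflorescences. It stood at 0.0878 FPKM in leaves, 0.0159 in day-0 apices, 0.0276 in day-2 apices and 36.3 in inflorescences. It was the only one of the 10 genes that was lower in leaves than in inflorescences by the rule, with a log2 difference of -5.10. The inflorescence level was 413 times that of leaves, against values elsewhere that are close to 0. Some other aquaporins known from pollen or anthers were also highest in inflorescences. TIP5;1 was at 0.0316 FPKM or less outside inflorescences and at 11.2 there. NIP4;1 was listed at 0 in the other 3 groups and stood at 20.7 in inflorescences. NIP7;1, a boric acid channel of anthers, was at 0.438 or less elsewhere and at 24.7 in inflorescences. NIP4;2 was close to absent, at 0.0120 FPKM in inflorescences and 0 in the other groups. The 7 tapetum and pollen markers summed to 2393 FPKM in inflorescences and to 6.07 or less in each other group, and their part in these levels was not tested.

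Among the PIPs, the 4 chosen genes were all highest in leaves. PIP1A stood at 402 FPKM in leaves, 37.6 in day-0 apices, 49.4 in day-2 apices and 111 in inflorescences. PIP1B, a major leaf PIP1 that also carries carbon dioxide when tested in other cells, stood at 1173, 230.0, 388 and 394 in the same order. They are 87.6% identical in coding sequence, and leaves had 3.61 and 2.97 times the highest other group.

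The 2 PIP2 genes had a stronger preference. PIP2A, which acts in leaf water flow and guard cell movement, stood at 1437 FPKM in leaves, 59.2 in day-0 apices, 42.0 in day-2 apices and 205 in inflorescences. PIP2B, best known for water uptake in roots, stood at 338 in leaves, 2.19 in day-0 apices, 3.11 in day-2 apices and 18.4 in inflorescences. Leaves had 7.01 times the highest other group for PIP2A and 18.3 times for PIP2B. In both, inflorescences lay between leaves and apices, at 4.88 times day 2 for PIP2A and 5.94 times for PIP2B. RD28, the neighbour that shares windows with PIP2B and was first described as desiccation-responsive, had the same order as PIP2B, with 216, 5.95, 9.04 and 21.1 FPKM in leaves, day 0, day 2 and inflorescences.

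By the rule of size, 7 of the 10 genes were higher in leaves than at day 0 and 0 were lower, with a median log2 difference of 2.86. Over all genes kept, 23.0% were higher and 16.3% lower, with a median of 0.07. Against day 2, 8 genes were higher and 0 lower, with a median of 2.80, beside 23.9% and 16.4% of all genes and a median of 0.08. Against inflorescences, 7 were higher and 1, TIP1;3, was lower, with a median of 1.76, beside 18.9% and 17.1% of all genes and a median of -0.03. Since the genes were chosen with these leaf contrasts known, their counts are a description. Sums of some other cell type markers were also highest in leaves. The 7 vascular markers summed to 911 FPKM in leaves and to between 65.6 and 176 elsewhere, and SUC2, SWEET11 and SWEET12 of the phloem carried most of that sum. The xylem markers were mixed. IRX3 and XCP2 were at 1.75 and 17.2 in leaves and at 8.78 and 24.4 in inflorescences, while XCP1 was at 9.63 and 8.79. The 4 guard cell markers summed to 70.3 in leaves against 3.72 to 20.1 elsewhere. Their part in the aquaporin levels was not tested. Of the 5 root markers, RHD6 and EXPA7 were at 0.0586 FPKM or less in every group. COBL9 reached 6.27 in inflorescences, PHO1 stood at 8.65 in leaves and 5.83 in inflorescences, and NRT2.1 at 1.07 in leaves.

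**Figure D3:**
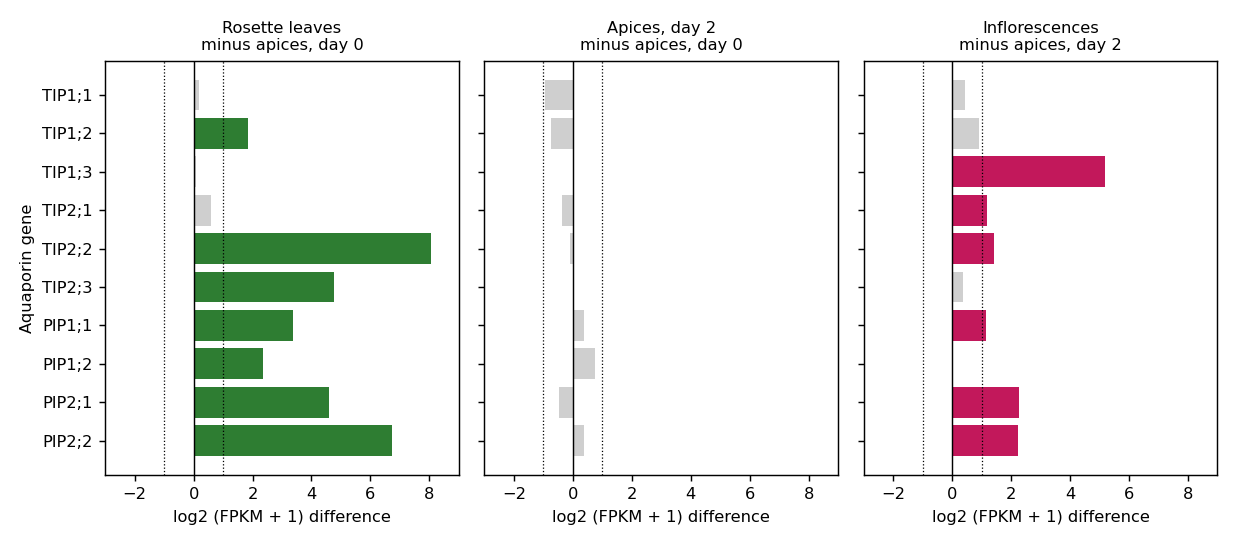
Differences in log2(FPKM + 1) of the 10 aquaporin genes, as 1 bar per gene in 3 of the 6 comparisons (leaves against day 0, day 2 against day 0, inflorescences against day 2), coloured where the rule of size is met, with dotted lines at -1 and 1. Day 2 against day 0 holds every gene between -0.96 and 0.75, while leaves against day 0 runs from 0.10 for TIP1;3 to 8.07 for TIP2;2.

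After dexamethasone, none of the 10 genes passed the rule between day 0 and day 2. Of all genes kept, 0.817% were higher and 1.64% lower at day 2, so a count of 0 among 10 is near the background. The differences ran from -0.96 for GAMMA-TIP to 0.75 for PIP1B, with a median of -0.05. The 3 abundant TIPs were each lower at day 2, at 0.513 times the day 0 level for GAMMA-TIP, 0.597 times for TIP1;2 and 0.771 times for DELTA-TIP. Of the PIPs, PIP1A, PIP1B and PIP2B were higher at day 2 and PIP2A was lower, at 1.31, 1.69, 1.42 and 0.711 times day 0. Among all 35 aquaporins, NIP5;1, a boric acid channel known from roots, was the only one that passed the rule, at 17.2 FPKM on day 0 and 37.0 on day 2.

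Several of the 10 genes were higher in inflorescences than in apices, while the sum over all 35 aquaporins was 0.937 times that of day 2 and 0.894 times that of day 0. Against day 2, 6 of the 10 genes were higher and 0 lower, with a median difference of 1.17, beside 13.9% and 4.22% of all genes and a median of 0.06. These were TIP1;3, DELTA-TIP, TIP2;2, PIP1A, PIP2A and PIP2B, and 3 of them, TIP1;3, PIP2A and PIP2B, passed when a difference of 1.5 was asked. Against day 0, 5 were higher and 0 lower, with a median of 1.07, beside 12.5% and 3.97% of all genes and a median of 0.03. DELTA-TIP passed against day 2, by 1.19, and stood at 0.81 against day 0. Outside the 10 genes, 20 other aquaporins were kept. Of these, 7 were higher and 3 lower in inflorescences than at day 2, and 8 were higher and 2 lower than at day 0. The 2 that were lower than in both apex groups were PIP1E (AT4G00430, PIP1;4) and PIP2D (AT3G54820, PIP2;5). For TIP2;2 the differences were 1.43 and 1.32 from levels of only 2.09 to 7.35 FPKM, and with 5 in place of 1 added before the logarithm they were 0.80 and 0.75, which ends both calls. The mesophyll markers were also higher in inflorescences than in apices in 5 of 5 cases in both comparisons, and their part was not tested.

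The 10 genes held nearly all TIP mRNA but a changing share of PIP mRNA. Summed over all 10 TIP genes, the level was 4430 FPKM in leaves, 1950 in day-0 apices, 1130 in day-2 apices and 1955 in inflorescences. The 6 chosen TIPs made up 98.8% or more of it in each group. TIP2;2 held 20.2% of the sum in leaves, 0.120% in day-0 apices, 0.185% in day-2 apices and 0.376% in inflorescences. GAMMA-TIP held 29.0% in leaves and 58.7% at day 0. The TIP total in leaves was 2.27 times that of day 0, 3.92 times that of day 2 and 2.27 times that of inflorescences, and stayed above 1 under each scaling tried.

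Summed over all 13 PIP genes, the level was 5534 FPKM in leaves, 3608 in day-0 apices, 4136 in day-2 apices and 2908 in inflorescences. The 4 chosen PIPs held 60.5% of this in leaves, 9.12% in day-0 apices, 11.7% in day-2 apices and 25.1% in inflorescences. The PIP total in leaves was 1.53 times that of day 0 and 1.34 times that of day 2, and the second ratio became 0.910 when groups were rescaled to equal sums. All aquaporins together made up 0.793% of the FPKM sum in leaves, 0.633% in day-0 apices, 0.623% in day-2 apices and 0.551% in inflorescences.

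**Figure D4:**
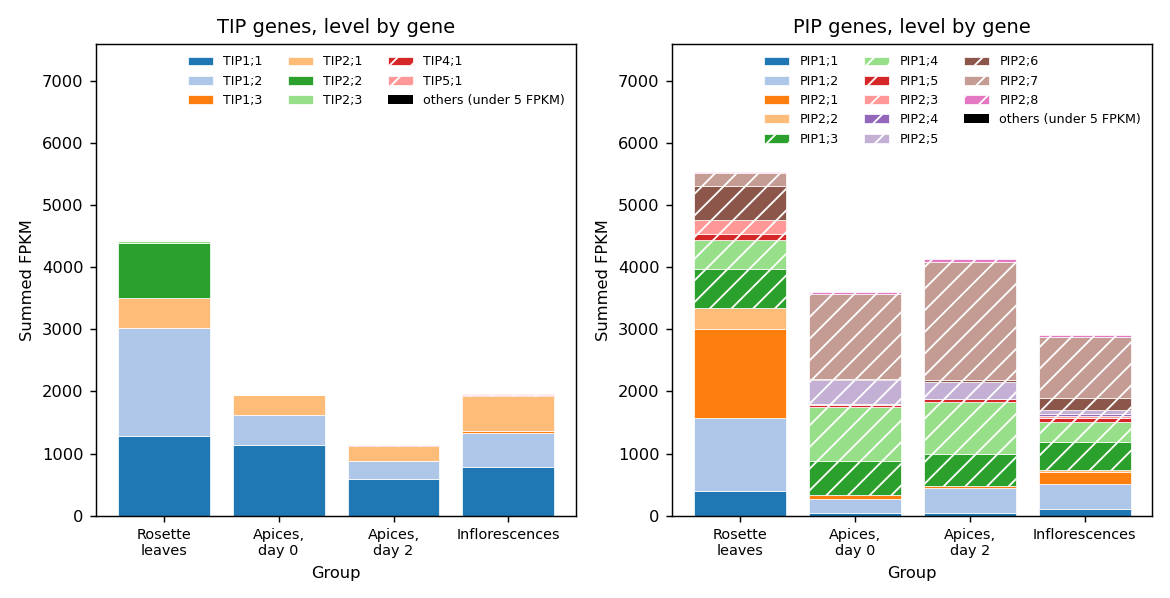
Summed FPKM of TIP genes (left) and PIP genes (right) in each group, stacked by gene under systematic names, with hatching for genes outside the chosen 10. TIP2;2 is a visible block in leaves alone, at 20.2% of the TIP sum, and the chosen PIPs shrink from 60.5% of the PIP sum in leaves to 9.12% at day 0.

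Of the other PIPs, 3 were lower in leaves than in apices and inflorescences. PIP3 (AT4G35100, PIP2;7), an abundant plasma membrane water channel, stood at 216 FPKM in leaves, 1367 in day-0 apices, 1903 in day-2 apices and 985 in inflorescences. At day 2 it ranked 17th of all genes kept. PIP2D stood at 11.8, 386, 269 and 72.1 FPKM, and PIP3B (AT2G16850, PIP2;8) at 5.69, 37.4, 44.2 and 36.1 in the same order. Together these 3 held 4.23% of the PIP sum in leaves, 49.6% in day-0 apices, 53.6% in day-2 apices and 37.6% in inflorescences. Each was lower in leaves than in every other group by the rule, with log2 differences against day 0 of -2.65, -4.91 and -2.52.

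The remaining PIPs were of both kinds. PIP2E (AT2G39010, PIP2;6) was also highest in leaves, at 544, 21.8, 36.7 and 186 FPKM. PIP1C (AT1G01620, PIP1;3) differed least, at 624, 550.0, 513 and 465 FPKM. PIP1E was at its highest in apices, at 465, 870.5, 829 and 307, and PIP1D (AT4G23400, PIP1;5) stood at 99.6, 40.6, 48.1 and 79.7. PIP2F (AT5G60660, PIP2;4) was under 1 FPKM outside inflorescences and 28.3 there. Over all 13 PIPs, 7 were higher and 3 lower in leaves than at day 0, and of the 9 that were not chosen 3 were higher and 3 lower, beside 23.0% and 16.3% of all genes.

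**Figure D5:**
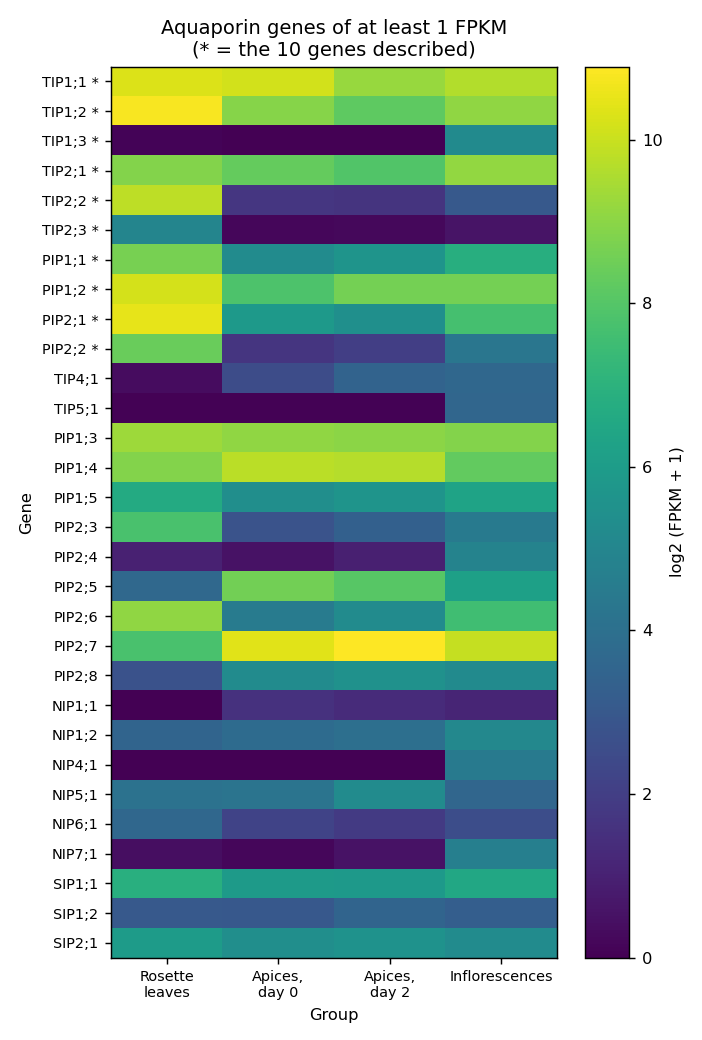
Levels of the 30 aquaporin genes kept in the 4 groups, as a colour scale on log2(FPKM + 1), under systematic names with an asterisk for the chosen 10. PIP3 is brightest in apices, at 1367 and 1903 FPKM, while TIP1;3, TIP5;1 and NIP4;1 leave the dark end of the scale in inflorescences alone.

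The genes whose profile over the 4 groups was most like TIP2;2 were not aquaporins. Likeness was the Euclidean distance between log2(FPKM + 1) profiles centred on their means, over 18673 genes with at least 5 FPKM in some group. The nearest 5 were PLA2A (AT2G26560), a lipid acyl hydrolase, ARCK1 (AT4G11890), a receptor-like kinase, GSTF2 (AT4G02520), a glutathione S-transferase, AT5G10760 and PR5 (AT1G75040), a pathogenesis-related protein. PLA2A stood at 448, 0.411, 0.272 and 2.55 FPKM, and PR5 at 872, 1.87, 2.27 and 10.6. The nearest aquaporin was PIP2B in 94th place, and TIP2;3 came 306th. The 5 nearest to TIP1;3 were PAB5 (AT1G71770), a poly(A)-binding protein, BGAL15 (AT1G31740), a beta-galactosidase, AT1G26710, AT2G18420 and ENODL6 (AT1G48940), all between 33.0 and 40.9 FPKM in inflorescences and at 0.189 or less elsewhere.

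Water follows solutes that proton pumps energize. Of 9 tonoplast proton pump genes, 6 were higher in leaves than at day 0, 5 than at day 2 and 0 than in inflorescences, with 0 lower, beside 23.0%, 23.9% and 18.9% of all genes higher in leaves. Their median difference against day 0 was 1.16 and their largest 1.52, beside a median of 0.07 over all genes. Counts for this and the other gene lists were not repeated under the other scalings, which lowered leaf values against the other groups. The pyrophosphatase VHP1 stood at 297, 390.3, 318 and 341 FPKM. VHA-A, a catalytic subunit of the vacuolar ATPase, stood at 283, 124, 122 and 182. Of 7 plasma membrane proton pump genes, AHA1, AHA2 and AHA3 were higher in leaves than in each other group, with AHA1 at 451, 116, 85.2 and 144 FPKM. The median difference of the 7 genes was 0.08 against day 0 and -0.32 against inflorescences. AHA4 and AHA9 were lower in leaves than in inflorescences, beside 17.1% of all genes. AHA4 stood at 0.683 in leaves and 5.14 in inflorescences. AHA9, known from anthers, stood at 78.2 in inflorescences and at 0.101 or less elsewhere.

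Of 7 genes that act in PIP traffic and regulation, SYP121, a syntaxin that brings PIP2 proteins to the plasma membrane, stood at 190 FPKM in leaves against 73.1, 51.2 and 42.5 elsewhere and was called higher against each group. TSPO, a membrane protein linked to PIP degradation under abscisic acid, stood at 64.9, 0.334, 0.410 and 7.72. The kinase OST1 was called higher in leaves than in inflorescences alone (29.3 against 12.0). The receptor-like kinase SIRK1 was lower in leaves than in apices (6.87 against 19.3 and 22.8). SYP61, VAP27-1 and RMA1 passed in no comparison. As a list, 2 of the 7 were higher and 1 lower in leaves, whichever apex group was compared. These counts are near the background, which was 23.0% and 16.3% of all genes for day 0 and 23.9% and 16.4% for day 2. When leaves were compared with inflorescences, 3 of the 7 were higher and 0 lower, beside 18.9% and 17.1% of all genes. Of 10 alpha expansins, which loosen walls of growing cells, 5 were higher and 3 lower in leaves than at day 0, beside 23.0% and 16.3% of all genes. Against day 2, 5 were higher and 4 lower, beside 23.9% and 16.4%. Against inflorescences, 0 were higher and 3 lower, beside 18.9% and 17.1%.

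Of 8 water-deficit genes, 7 were higher in leaves than at day 0, 8 than at day 2 and 6 than in inflorescences, beside 23.0%, 23.9% and 18.9% of all genes. Their median difference against day 0 was 4.42, beside 0.07. KIN1 was lower in leaves than in inflorescences, at 69.0 against 483 FPKM. LEA14 stood at 1612, 34.9, 37.5 and 57.7 FPKM and RAB18, a dehydrin, at 185, 0.566, 0.400 and 12.2. At day 2, 3 of the 8 were lower than at day 0, beside 1.64% of all genes, with RD29A at 16.6 and 5.86, COR15A at 34.5 and 15.6 and KIN1 at 68.3 and 27.3. The part of plant water status in the aquaporin levels was not tested.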

How the data were processed

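Polyadenylated RNA of 12 libraries in 4 groups was sequenced. Cufflinks 2.1.1, Bowtie2 2.1.0, CASAVA 1.8.2, TopHat2 2.0.10 and the TAIR10 genome are named, per the submitters' processing notes. The deposited table holds 1 FPKM value per gene and group. The unit FPKM was taken from the deposited values and from the Cufflinks step, since the header names none. Merging removes the spread between libraries, and the way Cufflinks divides reads among similar genes can move close paralogs.

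The 34133 rows hold 33559 identifiers, and the 567 that repeat were summed, none of them an aquaporin. Genes under 1 FPKM in all groups were left out. Differences were computed as log2(FPKM + 1) and called at 1 or more with at least 5 FPKM in the higher group. The rule was tested on simulated data with changes larger than it asks, which checks the code and not how reliable the calls are. The rule for named genes takes the 10 genes, all listed aquaporins, genes of further lists past the rule of size, the first 4 of each list and the 5 nearest profiles of TIP2;2 and TIP1;3, and longer lists are given as counts with examples. Members and lists were chosen with earlier results of these data known. Sequences came from RefSeq TAIR10.1, in which 32815 identifiers were matched, of Columbia, while the plants were Landsberg erecta. Promoter alignments scored 2 for a match, -3 for a mismatch, -5 to open a gap and -2 to extend it, and with the 50-base windows and printed stretches were chosen after values were seen. Protein identity was planned and replaced by coding identity. Python 3.11.15, pandas 2.3.3, numpy 2.4.6, Biopython 1.88 and matplotlib 3.10.9 were used.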

Additional observations from a re-analysis of the deposited data

How the results depend on the processing

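No paired analysis was possible because the columns hold merged groups with no replicate numbers, and for the same reason no replicate could be left out. Of the 60 differences of the 10 genes, all 60 kept direction and call with 0.1 added before the logarithm, with no filter, with 1 FPKM asked of the higher group, and with the highest row of a repeated identifier. At a log2 difference of 1.5, 5 calls were lost and 3 in place of 6 genes exceeded their day-2 level in inflorescences. With 5 added, the 2 inflorescence calls of TIP2;2 were lost. Each rescaling lost the call of GAMMA-TIP between leaves and day 2, and the uncalled 0.02 of PIP1B between inflorescences and day 2 became -0.06, -0.03 and -0.08. The TIP total of inflorescences over day 0, 1.00, became 0.951 to 0.983. Scalings of totals were added after the data were seen. Leaving out PIP2B and RD28 gave PIP totals of leaves over day 0, day 2 and inflorescences of 1.38, 1.21 and 1.74. Counts over all genes moved further. With 5 added, 113 genes were higher and 204 lower at day 2 than at day 0 (182 and 366 in the main count), and 597 and 577 were lower in inflorescences than at day 2 and day 0 (940 and 884). With equal sums, 5626 were lower in leaves than at day 2 (3658) and 2781 higher in leaves than in inflorescences (4203). With 1 FPKM asked, 277 were higher at day 2 than at day 0, and 4755 and 4357 exceeded day 2 and day 0 in inflorescences (3100 and 2796). At 1.5, 2731 were higher in leaves than in inflorescences, 94 were higher and 135 lower at day 2 than at day 0, and 385 were lower in inflorescences than at day 2 and 385 than at day 0. A stricter size or a larger added value leaves fewer genes by construction, and the cause of the other moves was not tested. Levels under about 1 FPKM rest on few reads of unknown number, so ratios against them are loose.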

Other observations

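The NIP and SIP subfamilies, with 9 and 3 genes, held little aquaporin mRNA. The NIP sum was 39.4 FPKM in leaves, 36.4 in day-0 apices, 56.6 in day-2 apices and 95.7 in inflorescences, and the SIP sum was 183, 109, 116 and 137. SIPs are channels of the endoplasmic reticulum, and none of the 3 passed the rule in any of the 6 comparisons. SIP1A (AT3G04090) stood at 115, 60.7, 59.2 and 91.6 FPKM in leaves, both apex groups and inflorescences, SIP1B (AT5G18290) at 7.24, 7.09, 10.3 and 8.64, and SIP2;1 at 61.2, 41.4, 46.1 and 37.2. NLM1 (AT4G19030) was listed at 0 in leaves and at 1.96 or less elsewhere. NIP2;1, NIP3;1 and NIP4;2 were under 1 FPKM in every group. NIP1;2 stood at 10.5, 13.2, 14.8 and 32.7 FPKM, and NIP6;1, a boric acid channel of stem nodes, at 11.5, 3.63, 2.65 and 4.90. TIP4;1, known from roots, stood at 0.296 FPKM in leaves, 4.77 in day-0 apices, 10.12 in day-2 apices and 11.5 in inflorescences. The seed TIPs TIP3;1 and TIP3;2 were at 0.182 and 0.0988 FPKM or less in every group.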
